A study of Drosophila melanogaster with 6 samples.

Results

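The Dpr and DIP genes encode the 2 sides of a recognition network of immunoglobulin-domain cell-surface proteins. Rows of the count files were matched by FlyBase identifier to the 21 dpr genes (dpr1 to dpr21) and the 11 DIP genes (DIP-alpha to DIP-lambda), and all 32 were found among the 17471 genes listed. The libraries are from anterodorsal projection neurons (adPNs), Drosophila olfactory relay neurons whose dendrites enter glomeruli of the antennal lobe, taken at 36 to 40 h after puparium formation. The groups are 3 libraries labelled acj6 mutant, whose titles name acj66, and 3 libraries labelled wild type. acj6 encodes a POU-domain transcription factor of this lineage, and the series title sets the question of how it acts on dendrite targeting through surface proteins. The labels give neither the lesion nor the driver, the sex or the number of flies behind a library, and do not say whether cells were pooled. The p-values therefore measure library-to-library spread alone, part of which can be technical. A transcript of the membrane reporter mCD8-GFP was counted in every library, at 4147 to 4568 per 1000000 gene counts (TMM scaled) in the mutant and 3035 to 4174 in the wild type.

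Dpr proteins (named after defective proboscis extension response) and DIPs (Dpr-interacting proteins) bear a few extracellular immunoglobulin domains and bind each other across cell contacts. Each DIP binds a restricted set of Dprs in vitro, and in the fly visual system and at the neuromuscular junction matching pairs are found on neurons and their synaptic partners, where loss of some pairs alters wiring or cell survival. Reported binding was used here to sort the genes. DIP-alpha binds Dpr6 and Dpr10, DIP-beta binds Dpr8, Dpr9 and Dpr21, DIP-gamma binds Dpr11, Dpr15, Dpr16 and Dpr17, and DIP-delta binds Dpr12. DIP-epsilon and DIP-zeta were placed with Dpr13, Dpr14, Dpr19 and Dpr20, and DIP-eta, DIP-theta and DIP-iota with Dpr1 to Dpr5 and Dpr7. Each gene stands in 1 group, although some proteins bind across groups, and dpr18, DIP-kappa and DIP-lambda were put in none.

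The projection neuron label was checked against markers. The neuronal genes elav and nSyb, the cholinergic genes ChAT and VAChT, and the lineage genes acj6, kn and C15 had at least 50.2 CPM (counts per 1000000 gene counts after TMM scaling) in every library. vvl and Lim1, transcription factor genes used as markers of the lateral lineage, stayed at or under 10.4 CPM. acj6 transcript was higher in the mutant libraries (228 to 276 CPM) than in the wild type (143 to 158 CPM), and a gene-level count is no test of whether these libraries carry the lesion. Markers of other cell types were counted too, some of them well above trace levels. The sums of some marker lists, though not all, differed between genotypes. The summed level of 6 markers of other neurons was 117 to 157 CPM in mutant and 225 to 325 CPM in wild-type libraries. Among them Vmat had 65.6, 56.9 and 41.2 CPM in the mutant and 116, 189 and 77.8 CPM in the wild type. ChAT had 79.5, 50.2 and 85.2 CPM in the mutant and 76.1, 57.6 and 66.6 CPM in the wild type. Vmat was thus above the cholinergic gene ChAT in each wild-type library. That of 8 glial markers was 471 to 511 CPM in mutant and 599 to 667 CPM in wild-type libraries, most of it nrv2 and Gs2. The defining glial gene repo had at most 3.04 CPM. Of the 8 glial genes, 3 had positive and 5 negative log2 fold changes (mutant minus wild type). Of these, 1 was called, nrv2, which was lower in the mutant (log2 fold change -0.46, edgeR adjusted p 0.0425). Of the 6 markers of other neurons, 1 was positive and 5 were negative. Among these 6, 1 was called, DAT, which was lower in the mutant (log2 fold change -3.18, edgeR adjusted p 0.0111). DAT had 2.81, 2.97 and 1.32 CPM in the mutant and 19.2, 31.4 and 13.9 CPM in the wild type. 5 epithelial and cuticle genes summed to 1.51 to 4.09 CPM in mutant and 23.7 to 117 CPM in wild-type libraries, with Cpr100A and Lcp65Ad at 0 in all mutant libraries. The 4 cuticle genes among them were called lower in the mutant. The epithelial gene grh went the other way and was not called. It had 3.32, 3.07 and 1.38 CPM in mutant replicates 1 to 3 and 1.31, 1.08 and 0.675 CPM in wild-type replicates 1 to 3. 6 muscle genes summed to 7.45 to 12.8 CPM in mutant and 4.71 to 9.76 CPM in wild-type libraries, and Hml, a hemocyte gene, had at most 0.743 CPM. 6 hemocyte and fat body genes summed to 3913 to 5492 CPM in mutant and 4701 to 5192 CPM in wild-type libraries, nearly all of it Pxn. The summed level of the 8 projection neuron markers also differed, with 9251 to 9348 CPM in mutant and 6152 to 6655 CPM in wild-type libraries. Most of this sum was brp, a gene of the presynaptic active zone. Of the 8 genes, 4 had positive and 4 negative log2 fold changes, around a median of 0.04, so the sum does not stand for the whole list. acj6, kn and brp were called higher in the mutant (edgeR adjusted p 0.0124, 0.00223 and 0.00243), and the other 5 were not called. The part of these cells in the Dpr and DIP values below was not tested, and in bulk libraries fewer cells of a type and less RNA per cell cannot be told apart.

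Transcripts of nearly the whole network were counted in libraries of both genotypes. With a threshold of 1 CPM in every library of a group, all 21 dpr genes and 10 of the 11 DIP genes were present in the mutant, and the same numbers in the wild type, against 44.3% of all genes in the files that reached the threshold in at least 1 group. vvl (1.57 to 6.71 CPM) and Lim1 (2.04 to 10.4 CPM) also passed 1 CPM in every library, so for members at such levels (dpr10, dpr15, dpr16 and DIP-alpha among them) the counts do not show that adPNs themselves were the source. Markers of other neurons ran higher, with 41.2 to 189 CPM for Vmat, 30.9 to 73.1 CPM for VGlut and 18.7 to 44.9 CPM for SerT. The same limit therefore holds for members at those levels, among them dpr17, dpr18, DIP-kappa, DIP-eta and DIP-epsilon. At 50 CPM, 12 dpr and 4 DIP genes were present in the mutant and 14 dpr and 3 DIP genes in the wild type. Levels of different genes were compared as RPKM, which divides CPM by the gene's median transcript length in kilobases. By mean RPKM, 22 of the 32 lay above the median of the tested genes and 7 above their 75th percentile. The plot of levels by library shows that the members spread over a 151-fold range of mean RPKM, while libraries of both genotypes stayed close for most genes.

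**Figure D1:**
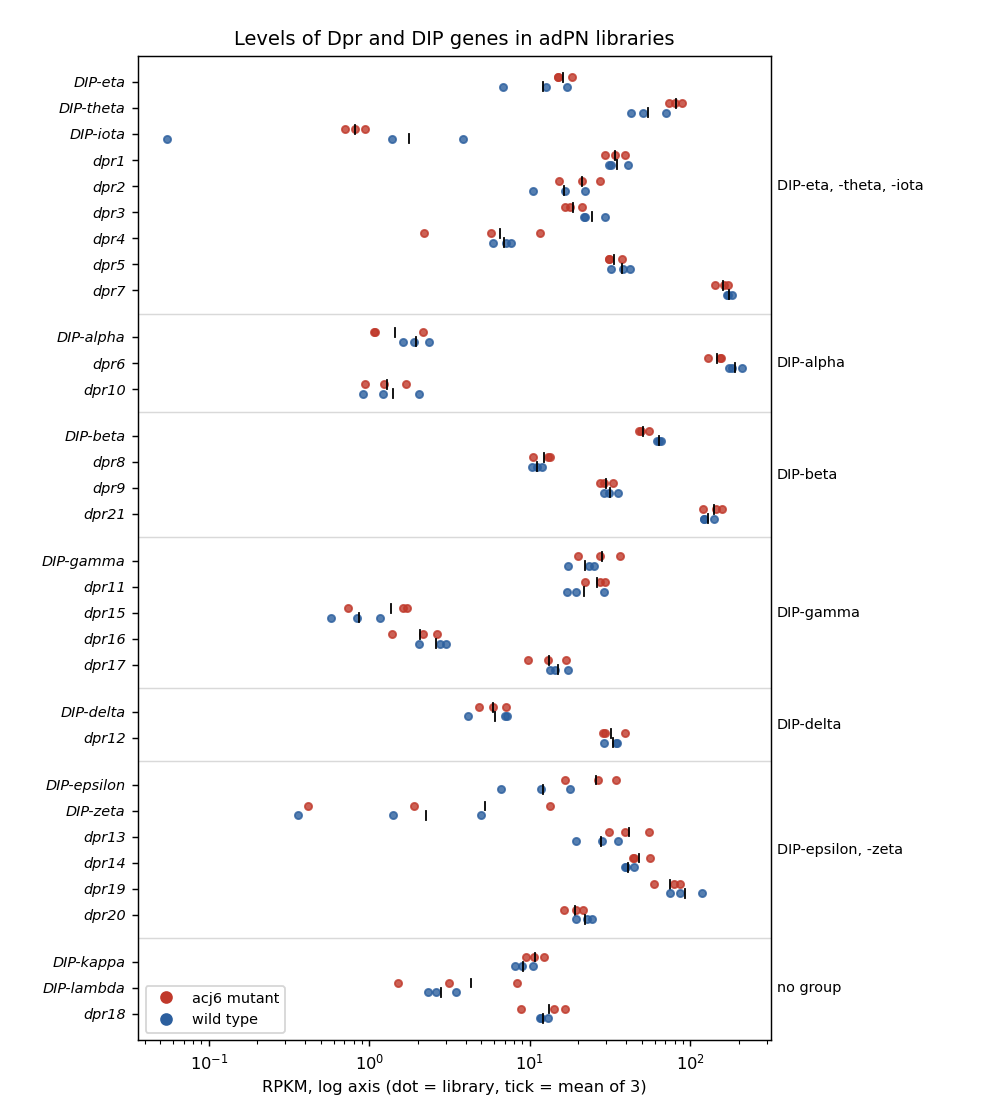
RPKM (log axis) of the 32 Dpr and DIP genes in each library, ordered by binding group, with acj6 mutant libraries in red above wild-type libraries in blue and black ticks for means of 3. dpr6, dpr7 and dpr21 lie highest and dpr15, DIP-iota and dpr10 lowest, and the points of both genotypes overlap for all but 4 genes.

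On the Dpr side, 3 genes supplied much of the transcript. dpr6, which encodes a ligand of DIP-alpha, had 154, 129 and 154 RPKM in mutant replicates 1 to 3, against 210, 175 and 182 RPKM in wild-type replicates 1 to 3. dpr7, from the group read by DIP-eta, DIP-theta and DIP-iota, had 162, 143 and 172 RPKM in the mutant and 183, 168 and 172 RPKM in the wild type. dpr21, a ligand of DIP-beta, had 157, 119 and 145 RPKM in the mutant and 122, 122 and 141 RPKM in the wild type. The dpr6 values of the mutant all lie below those of the wild type, while those of dpr7 and dpr21 overlap between genotypes. As shares of the summed RPKM of all 21 dpr genes, dpr6 made up 16.7% ± 0.368 in the mutant and 20.4% ± 0.800 in the wild type (SD, n = 3 each). dpr7 made up 18.2% ± 0.249 in the mutant and 18.8% ± 0.232 in the wild type, and dpr21 16.04% ± 1.20 in the mutant and 13.9% ± 1.56 in the wild type. The place of dpr6 at the top depends on the length used, since its mean over all libraries was 167 RPKM with the median transcript, 95.02 RPKM with the longest and 78.7 RPKM with the union of its exons.

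The next dpr gene by level was dpr19, a ligand gene of the DIP-epsilon and DIP-zeta group. It had 86.2, 59.0 and 79.4 RPKM in the mutant and 118, 86.7 and 74.9 RPKM in the wild type, with overlapping groups. The other 17 dpr genes averaged between 1.11 and 44.6 RPKM over all libraries. At the bottom stood dpr15, a DIP-gamma ligand gene, with 1.62, 0.739 and 1.72 RPKM in the mutant and 1.16, 0.840 and 0.581 RPKM in the wild type. The mutant and wild-type values of dpr15 overlap, and each rests on 51 to 222 reads. dpr10 (1.34 RPKM) and dpr16 (2.34 RPKM) were the next lowest by their mean over all libraries.

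On the DIP side, DIP-theta and DIP-beta were the most abundant. DIP-theta had 88.9, 74.0 and 80.5 RPKM in mutant replicates 1 to 3 and 50.4, 70.1 and 42.4 RPKM in wild-type replicates 1 to 3. DIP-beta had 47.5, 49.2 and 55.0 RPKM in the mutant and 63.8, 62.0 and 66.1 RPKM in the wild type. For both genes the groups do not overlap, in opposite directions: DIP-theta was higher in each mutant library and DIP-beta in each wild-type library. Of the summed RPKM of the 11 DIP genes, DIP-theta made up 35.3% ± 3.16 in the mutant and 28.5% ± 3.48 in the wild type, and DIP-beta 22.0% ± 1.26 in the mutant and 34.4% ± 5.56 in the wild type (SD, n = 3 each). DIP-gamma, the third by level, had 20.0, 27.3 and 36.7 RPKM in the mutant and 23.5, 25.1 and 17.3 RPKM in the wild type, and its groups overlap.

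DIP-iota was the least abundant DIP gene and the single member under the threshold in both genotypes. It had 47, 28 and 40 reads in mutant replicates 1 to 3 and 2, 180 and 46 reads in wild-type replicates 1 to 3. In CPM these are 1.25, 0.936 and 1.08 in the mutant and 0.0730, 5.11 and 1.83 in the wild type. The highest and the lowest library are both wild type. DIP-iota exceeded 3 counts in 5 of the 6 libraries, and the 2 reads of wild-type replicate 1 lie under the floor of 3 counts, or 0.109 CPM in that library.

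No Dpr or DIP gene passed the test for a difference between genotypes. With edgeR's quasi-likelihood test across all genes and Benjamini-Hochberg adjustment, 0 of the 32 were called higher and 0 lower at an adjusted p under 0.05, against 4.40% of the 9229 genes tested (3.07% higher and 1.33% lower). The 283 genes called higher and 123 lower became 169 higher and 155 lower when each library's trend with transcript length was removed. The smallest adjusted p of a member was 0.122. The background share amounts to 1.41 of 32 genes, so the count of 0 is near it and is no result particular to these families. An unadjusted p under 0.05 was reached by 4 members, against 16.6% of tested genes, and 4 members had groups that do not overlap, against 23.2% of tested genes. DESeq2 called 3 members, against 10.2% of the genes it tested, and limma-voom called 0, against 4.26%. The median log2 fold change (mutant minus wild type) of the members was -0.02, with 15 positive and 17 negative, beside a median of -0.01 over all tested genes.

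The intervals say how large a difference could have been missed. The 95% interval of the fold change, from the same fit and for each gene alone, stayed within 2-fold in either direction for 20 of the 32 members, against 44.5% of tested genes. For 8 members, all of them dpr genes, it stayed within 1.5-fold, as it did for 1701 of the 9229 tested genes. Narrow intervals belonged to abundant, evenly counted genes. dpr7 had a fold of 0.914 with an interval of 0.762 to 1.096, and dpr9, another DIP-beta ligand gene, a fold of 0.935 (0.748 to 1.17). The widest were those of DIP-zeta (0.363 to 14.7) and DIP-iota (0.0699 to 3.11). For such genes a several-fold difference was not detectable in these libraries, which is not to say that there was none.

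**Figure D2:**
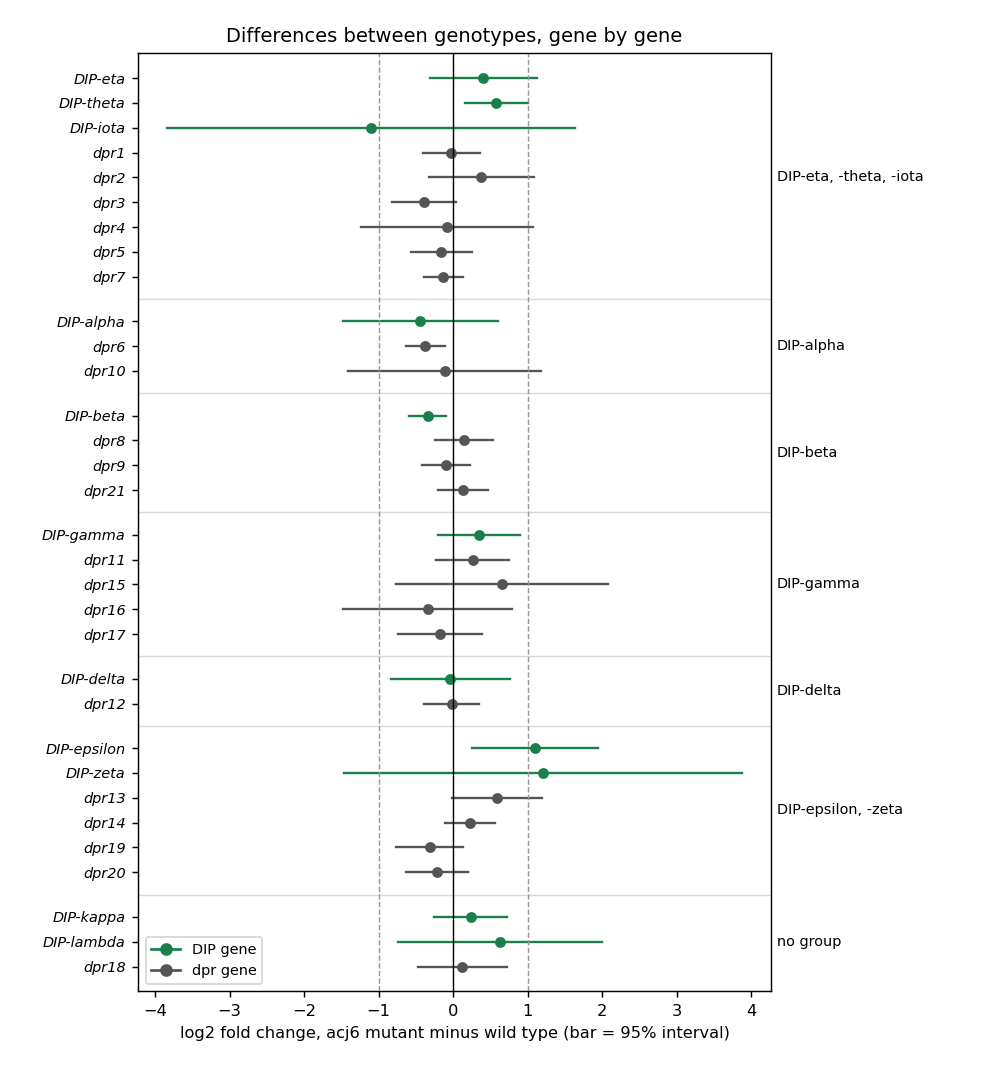
Log2 fold change, acj6 mutant minus wild type, of each of the 32 genes with its 95% interval from edgeR's fit, DIP genes in green and dpr genes in grey, ordered by binding group; dashed lines mark 2-fold. Intervals of 4 genes (DIP-theta, DIP-epsilon, DIP-beta and dpr6) leave out 0 when taken alone, and none is called after adjustment over all genes.

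Of 11 DIP genes 7 had positive fitted values, around a median log2 fold change of 0.35, and of 21 dpr genes 13 were negative, around a median of -0.08, beside 4568 positive and 4661 negative values over all tested genes. This split was not tested, and of the 7 positive DIP genes DIP-zeta and DIP-lambda turned negative (-0.96 and -0.27) without mutant replicate 2. 19 of the dpr genes differed by less than 0.4 in size on the log2 scale. The exceptions were dpr13 and dpr15, both with positive values. dpr13 encodes a ligand of the DIP-epsilon and DIP-zeta group. It had 125, 100.1 and 176 CPM in the mutant and 61.7, 90.5 and 114 CPM in the wild type (log2 fold change 0.59 ± 0.26 SE, edgeR adjusted p 0.310), and its groups overlap. With 0 calls these are fitted values and not called changes.

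Of the 4 genes with an unadjusted p under 0.05, DIP-epsilon had the largest fitted difference. It had 108, 52.4 and 83.8 CPM in mutant replicates 1 to 3, against 20.9, 56.1 and 37.0 CPM in wild-type replicates 1 to 3. The groups overlap through mutant replicate 2 and wild-type replicate 2, which lie side by side. The log2 fold change was 1.096 ± 0.37 (SE), a fold of 2.14 with an interval of 1.19 to 3.84, and the edgeR adjusted p was 0.161. DESeq2 called it (adjusted p 0.0251, the lowest of its alternatives, which reached 0.379).

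DIP-theta had 256, 213 and 232 CPM in the mutant, against 145, 202 and 122 CPM in the wild type. Every mutant library lies above every wild-type library, with wild-type replicate 2 close to mutant replicate 2. Its log2 fold change was 0.58 ± 0.19 (SE), a fold of 1.49 with an interval of 1.12 to 1.999, and its edgeR adjusted p was 0.135. DESeq2 called it (adjusted p 0.0261, the lowest of its alternatives, which reached 0.301). 12.6% of the exon length of DIP-theta is shared with a noncoding RNA gene on the same strand, so counts from the shared stretch are uncertain.

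DIP-beta and dpr6 had fitted values below 0, each with non-overlapping groups. DIP-beta had 209, 216 and 241 CPM in the mutant and 280, 272 and 290 CPM in the wild type. The groups do not overlap and the libraries of each genotype lie close together. The log2 fold change was -0.34 ± 0.11 (SE), a fold of 0.791 with an interval of 0.666 to 0.939, and the edgeR adjusted p was 0.139. It was called in 1 alternative, where each library's trend with transcript length was removed (log2 fold change -0.52, adjusted p 0.0426, in a range up to 0.318 over its alternatives). DIP-beta is X-linked, as are DIP-alpha, dpr8, dpr14 and dpr18. The male-specific X-chromosome RNA roX1 was at 2996 ± 287 CPM in the mutant and 1531 ± 131 CPM in the wild type (edgeR adjusted p 0.00243), while roX2 was at 484 ± 54.8 CPM in the mutant and 500 ± 64.3 CPM in the wild type (SD, n = 3 each). The part of the sex of the flies in these values was not tested.

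dpr6 had 458, 383 and 456 CPM in the mutant and 622, 520 and 541 CPM in the wild type, again without overlap. Its log2 fold change was -0.37 ± 0.12 (SE), a fold of 0.771 with an interval of 0.643 to 0.925, and the edgeR adjusted p was 0.122. DESeq2 placed it just inside the threshold with an adjusted p of 0.0498, and its alternatives reached 0.288. The fourth member whose groups do not overlap was dpr3, from the DIP-eta, DIP-theta and DIP-iota group, with 49.9, 53.6 and 63.1 CPM in the mutant and 87.7, 66.1 and 64.8 CPM in the wild type. Mutant replicate 3 and wild-type replicate 3 of dpr3 lie almost together, and its edgeR adjusted p was 0.345.

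**Figure D3:**
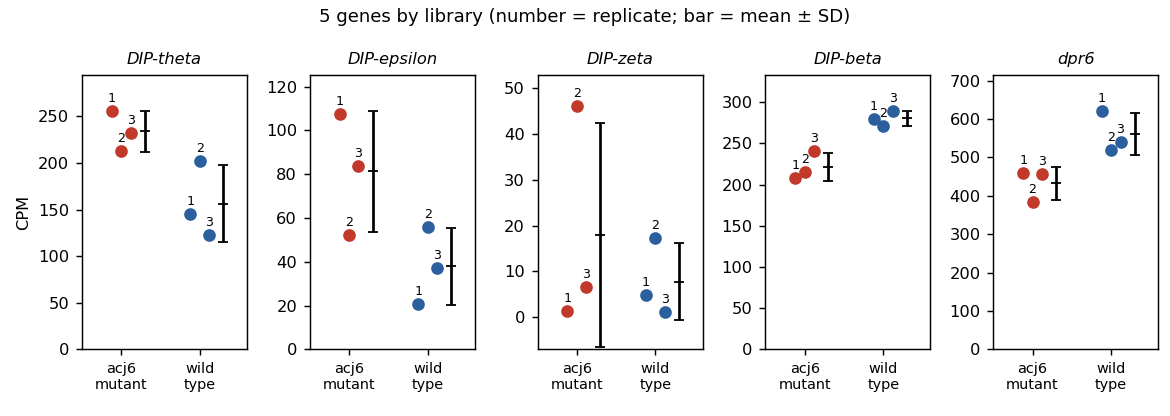
CPM of DIP-theta, DIP-epsilon, DIP-zeta, DIP-beta and dpr6 in each library, numbered by replicate, acj6 mutant (red) left of wild type (blue), with bars for the mean ± SD of 3. DIP-theta separates upward and DIP-beta and dpr6 downward in the mutant, DIP-epsilon overlaps through replicate 2 of each genotype, and DIP-zeta is set by single libraries.

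Some members varied more between libraries of a genotype than between genotypes. DIP-zeta had 1.43, 46.0 and 6.56 CPM in mutant replicates 1 to 3 and 4.85, 17.2 and 1.23 CPM in wild-type replicates 1 to 3. The coefficient of variation was 135% in the mutant and 108% in the wild type, with replicate 2 highest in each. Its log2 fold change was 1.21 ± 1.18 (SE, edgeR adjusted p 0.684) and turned to -0.96 without mutant replicate 2. DIP-lambda was also highest in mutant replicate 2, with 3.72, 20.5 and 7.69 CPM in the mutant and 5.73, 6.39 and 8.57 CPM in the wild type. So was dpr4, with 6.58, 34.7 and 17.2 CPM in the mutant and 23.0, 17.6 and 21.4 CPM in the wild type. DIP-iota, DIP-zeta, DIP-lambda and dpr4 were the 4 members with a coefficient of variation over 50% in a genotype. The others were counted more evenly, and the median over all members was 16.1% in the mutant and 18.2% in the wild type, beside 23.5% in the mutant and 21.9% in the wild type over all tested genes.

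The genes were next read by binding partners. In each of the 6 groups the summed RPKM of the dpr genes was above that of the DIP genes in every library. With the longest transcript or the union of exons this held in 5 groups, the exception being DIP-gamma, where the ratio in mutant replicate 3 was 0.897 with the longest transcript and 0.835 with the union of exons. Besides dpr6, the length moved 3 mean levels by over 1.5 times, to 2.67 RPKM for DIP-delta, 0.859 RPKM for DIP-alpha and 8.39 RPKM for dpr17 with the union of exons. Over the whole network the dpr genes summed to 874 ± 78.4 RPKM in the mutant and 925 ± 51.5 RPKM in the wild type, and the DIP genes to 230 ± 5.37 RPKM in the mutant and 188 ± 25.8 RPKM in the wild type (SD, n = 3 each). These sums compare transcripts and not proteins. As the dpr side also holds more genes in most groups, a ratio of sums is a description of the groups as drawn.

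**Figure D4:**
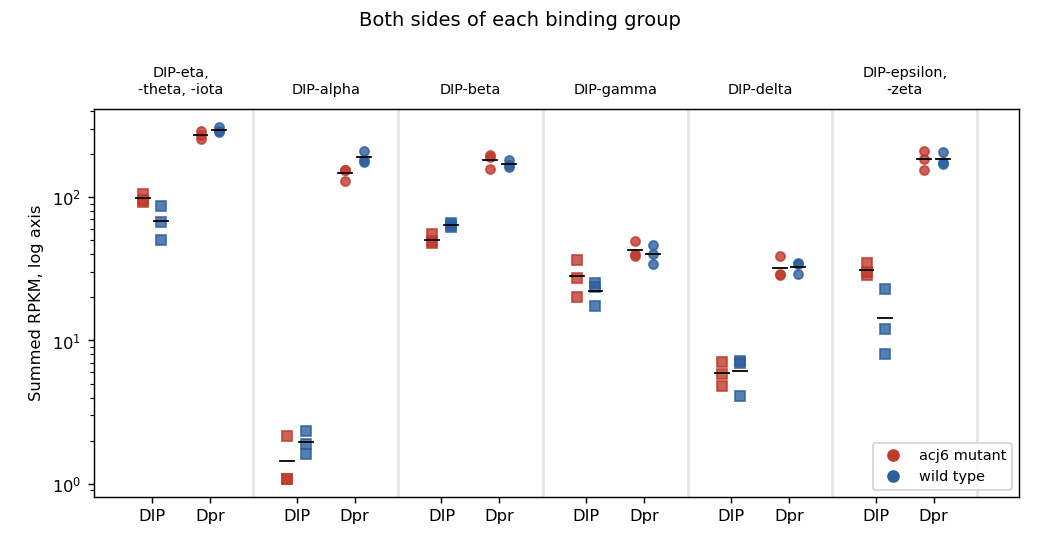
Summed RPKM (log axis) of the DIP genes (squares) and the dpr genes (circles) of each binding group in every library, acj6 mutant (red) left of wild type (blue), with lines for means of 3. The DIP-alpha group has the widest gap between its sides and the DIP-gamma group the narrowest.

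The DIP-alpha group was the most lopsided. DIP-alpha itself had 1.08, 2.16 and 1.09 RPKM in the mutant and 1.61, 1.90 and 2.35 RPKM in the wild type, while its 2 ligand genes summed to 147 ± 14.7 RPKM in the mutant and 190 ± 18.6 RPKM in the wild type. Nearly all of that sum was dpr6. dpr6 and dpr10 lie on the same chromosome arm with 5 protein-coding genes between them, yet dpr10 averaged 1.29 ± 0.375 RPKM in the mutant and 1.40 ± 0.589 RPKM in the wild type (SD, n = 3 each). DIP-alpha had a log2 fold change of -0.44 ± 0.46 (SE, edgeR adjusted p 0.707), with overlapping groups.

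In the DIP-beta group both sides were well expressed. The summed RPKM of dpr8, dpr9 and dpr21 was 182 ± 20.9 in the mutant and 171 ± 9.39 in the wild type, against 50.6 ± 3.88 in the mutant and 63.9 ± 2.06 in the wild type for DIP-beta (SD, n = 3 each). The ratio of the dpr sum to DIP-beta was 4.16, 3.22 and 3.48 in the mutant and 2.64, 2.64 and 2.75 in the wild type. It was higher in each mutant library, a description of a sum over chosen genes to which no test was applied. The ratio was lower in each mutant library for DIP-epsilon and DIP-zeta (mutant 5.15 to 7.42, wild type 7.76 to 25.6). So it was for DIP-eta, DIP-theta and DIP-iota (mutant 2.60 to 3.03, wild type 3.32 to 5.61). Over all members it was 3.48 to 3.96 in the mutant and 4.08 to 5.43 in the wild type. In the DIP-alpha, DIP-gamma and DIP-delta groups the ratios overlapped. The log2 fold changes of the 3 ligand genes were 0.15 for dpr8, -0.10 for dpr9 and 0.13 for dpr21, none of them called, and their difference from DIP-beta was not tested.

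The DIP-gamma group had the smallest gap between its sides. DIP-gamma stood at 28.0 ± 8.36 RPKM in the mutant and 22.0 ± 4.13 RPKM in the wild type, against 42.9 ± 5.81 RPKM in the mutant and 40.3 ± 6.11 RPKM in the wild type for its 4 ligand genes. dpr11 carried most of the ligand sum with 26.2 ± 3.76 RPKM in the mutant and 21.9 ± 6.26 RPKM in the wild type, and dpr17 most of the rest. The fitted differences of DIP-gamma (log2 fold change 0.35 ± 0.24) and dpr11 (0.26 ± 0.22 SE) were not called. dpr17 and dpr15 have 1 protein-coding gene between them, and their levels over all libraries were 14.1 and 1.11 RPKM. In the DIP-delta group, dpr12 had 32.3 ± 5.76 RPKM in the mutant and 32.8 ± 3.11 RPKM in the wild type, and DIP-delta 5.93 ± 1.13 RPKM in the mutant and 6.08 ± 1.73 RPKM in the wild type. The log2 fold changes were -0.02 ± 0.16 for dpr12 and -0.04 ± 0.35 for DIP-delta (SE, edgeR adjusted p 0.967 and 0.973). The interval of the fold was 0.765 to 1.27 for dpr12 and 0.563 to 1.69 for DIP-delta.

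In the DIP-epsilon and DIP-zeta group, the 2 DIP genes summed to 34.6, 30.0 and 28.5 RPKM in mutant replicates 1 to 3 and to 8.04, 22.8 and 12.1 RPKM in wild-type replicates 1 to 3. The 4 dpr genes summed to 184 ± 28.6 RPKM in the mutant and 184 ± 19.1 RPKM in the wild type (SD, n = 3 each). The sums of the DIP genes do not overlap between genotypes, though the 2 genes that enter them overlap when taken singly, and no test was applied to the sums. In mutant replicate 2 DIP-zeta gave 13.3 and DIP-epsilon 16.6 RPKM, while in mutant replicate 1 they gave 0.416 and 34.2 RPKM. Within the ligand side the fitted values went both ways, with log2 fold changes of 0.59 for dpr13, 0.23 for dpr14, -0.31 for dpr19 and -0.22 for dpr20, none of them called.

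The group of DIP-eta, DIP-theta and DIP-iota held the largest sums on both sides. The 3 DIP genes summed to 105, 93.0 and 96.2 RPKM in the mutant and to 67.5, 86.6 and 50.6 RPKM in the wild type, and the 6 dpr genes to 273 ± 18.3 RPKM in the mutant and 294 ± 14.1 RPKM in the wild type (SD, n = 3 each). DIP-theta carried most of the DIP sum and dpr7 most of the dpr sum. DIP-eta had 39.9, 48.5 and 39.7 CPM in the mutant and 45.2, 33.6 and 18.1 CPM in the wild type, with a log2 fold change of 0.40 ± 0.32 (SE, edgeR adjusted p 0.598). DIP-eta and DIP-theta have 1 protein-coding gene between them on arm 2L, and in both wild-type replicate 3 had the lowest value of the 6 libraries. That library was also the lowest for members that are not close neighbours of these, among them dpr2, DIP-gamma and DIP-kappa. dpr4 and dpr5, adjacent genes on arm 3R with 0 protein-coding genes between them, had different levels per length, with 6.51 ± 4.75 RPKM in the mutant and 6.90 ± 0.929 RPKM in the wild type for dpr4 and 33.4 ± 3.68 RPKM in the mutant and 37.3 ± 4.96 RPKM in the wild type for dpr5. dpr1 and dpr2 had log2 fold changes of -0.03 ± 0.17 and 0.37 ± 0.31, dpr5 -0.16 ± 0.18 and dpr7 -0.13 ± 0.12 (SE).

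The 3 genes outside the groups were expressed at low to middle levels. DIP-kappa had 10.8 ± 1.36 RPKM in the mutant and 9.13 ± 1.20 RPKM in the wild type, dpr18 had 13.2 ± 3.98 RPKM in the mutant and 12.1 ± 0.739 RPKM in the wild type, and DIP-lambda 4.32 ± 3.57 RPKM in the mutant and 2.80 ± 0.605 RPKM in the wild type (SD, n = 3 each). Their log2 fold changes were 0.24, 0.12 and 0.63, with edgeR adjusted p-values from 0.660 to 0.879.

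The members share some features of their genes. 9 of the 32 lie on chromosome arm 2L, 5 on 2R, 4 on 3L, 8 on 3R, 5 on X and 1 on chromosome 4. On 2L, 6 of the 9 are DIP genes. Their median transcript length was 2980.5 bases, beside 1953.5 bases for tested genes. Exons of 6 members overlap those of another gene on either strand, by 15.7% of the exon length for dpr4, 12.6% for DIP-theta and at most 4.04% for dpr16, DIP-zeta, DIP-gamma and DIP-alpha, and since the strand setting of the counting is not given in the sources used here their counts carry that uncertainty.

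Related genes beyond the 32 members were read from a list of 11, of which 10 were tested. Most are immunoglobulin-family genes, but Nrt and cDIP are not. Lac, which encodes the adhesion protein Lachesin, was the 1 called, and it fell (0 of 10 were higher). Over all tested genes 4.40% were called, 1.33% of them as lower and 3.07% as higher. The part of other cell types in the Lac values was not tested. Lac had 11.97, 14.1 and 13.4 CPM in the mutant and 44.9, 54.3 and 32.4 CPM in the wild type, a log2 fold change of -1.74 ± 0.26 (SE, edgeR adjusted p 0.0110) without overlap between groups. klg (565 ± 65.5 CPM in the mutant and 450 ± 30.8 CPM in the wild type) and CG34353 (578 ± 33.0 CPM in the mutant and 449 ± 57.7 CPM in the wild type; SD, n = 3 each) had folds of 1.26 and 1.29 and were not called. The median log2 fold change of the 10 was -0.01. cDIP, which encodes a secreted leucine-rich repeat protein that binds many Dprs and DIPs in vitro, had 2, 8 and 1 reads in the mutant and 9, 3 and 0 reads in the wild type, at the limit of what was detectable, and was not tested.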

How the data were processed

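Per the labels, libraries were made with modified SMART-seq2, which amplifies full-length cDNA without molecular identifiers. Floors of 3 counts cover counting error only, while intervals of fold changes come from the fit and include the spread between libraries. The authors deposited raw counts for each gene, with a separate file for every library. The submitters' processing notes name HTSeq 0.11.2, STAR 2.5.4 and bcl2fastq 2.19.0.316; the build, the annotation and the strandedness of counting are not given in sources used here, so no coordinates are printed. Total gene counts were 30980945 to 38279909 in the mutant and 24467328 to 34547549 in the wild type, and 3 counts equal 0.0796 to 0.119 CPM after TMM scaling. Spike-ins, transgenes and summary entries (unassigned reads were 8.59% to 10.9% of gene counts, ambiguous reads 2.49% to 2.66%) stayed out of library sizes. Non-unique alignments, which were not counted, numbered 2.19 to 2.95 for each gene count in the mutant and 3.21 to 4.16 in the wild type, without overlap. This loss can fall on genes with near-identical copies, and which genes it touched was not examined.

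Symbols were matched by identifier (17242 of 17471), and lengths, arms and overlaps came from Ensembl 115 gene models (98.5% of tested genes had a length). Genes kept by filterByExpr (9229) were scaled with TMM and tested with edgeR 4.0.16 (glmQLFit, glmQLFTest, R 4.3.3) on genotype over all 6 libraries, two-sided, with adjustment over all tested genes and calls at 0.05. The fit was tested on simulated data. Alternatives were DESeq2 1.42.0, limma 3.58.1 (voom), other scaling, filters and lengths, a replicate block and leaving out each library. The members, binding groups and lists were chosen with earlier results of these data known. Values in every library are given for members with an unadjusted p under 0.05, those whose groups do not overlap with a log2 fold change of at least 0.5 in size, the 4 dpr and 3 DIP genes highest in RPKM, and the lowest of each family; other members given by library, among them dpr3, dpr4, dpr13, DIP-eta, DIP-zeta, DIP-alpha and DIP-lambda, were chosen after their values were seen.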

Additional observations from a re-analysis of the deposited data

How the results depend on the processing

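The count of 0 called Dpr and DIP genes was the same in 13 of 15 alternatives to the main test; DESeq2 called 3 (2 higher, 1 lower) and the removal of the length trend 1 (DIP-beta, lower). The number of all genes called was 406, moved to 940 with DESeq2 and lay between 143 and 249 with 1 library left out. Related genes called were 1, and 2 with DESeq2. No call of a Dpr or DIP gene arose with a replicate block, which called 293 of all genes. Libraries of the same number did not deviate together over genes as a whole (correlations of 0.0164, -0.00131 and 0.0469). These values cannot exclude a pairing that touches only some genes, which was not tested. Set at 0.5 CPM, 5 CPM or more than 3 counts in every library of at least 1 group, the threshold was passed by 27 to 32 members. Of 479 recomputed log2 fold changes of members, 455 kept their direction and stayed uncalled, 4 became called and 20 turned, each of them uncalled: with the length trend removed dpr8 was -0.0661, with limma-voom DIP-iota was 0.0672, and the others came from leaving out 1 library. Over those leave-outs the range was -0.13 to 0.10 for dpr1, -0.80 to 0.33 for dpr4, -0.35 to 0.28 for dpr10, -0.179 to 0.0649 for dpr12, -0.0700 to 0.343 for dpr18, -0.25 to 0.11 for DIP-delta, -0.96 to 2.56 for DIP-zeta, -1.66 to 0.20 for DIP-iota and -0.27 to 1.03 for DIP-lambda. The cause of these turns was not tested. Depth limits what can be read of DIP-iota (2 to 180 reads a library) and cDIP (0 to 9 reads).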
